A study of Mus musculus with 9 samples.

Results

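The genes examined here belong to the interferon response and to antigen presentation. They were chosen by symbol from a list of 39 genes, drawn up with earlier results of these data known. A gene entered when its mean value over the 9 libraries was at least 10. The table held 38 of the 39 by symbol and all 38 passed that minimum, out of 15238 genes that did so and 19944 listed. The remaining gene, Ddx58, encodes the RNA sensor RIG-I and is listed in the table under its newer symbol Rigi, so its values are given beside the others and it enters no count. The livers came from male mice 60 days old, in 3 groups of 3 libraries. They are wild type (WT), SND1 knockout (KO) and SND1 KI, a knock-in that mutates the Tudor domain, the part of SND1 that reads methylated arginine. The titles name the FVB strain for all 3 groups. The cell type is labelled hepatocyte although the tissue is liver, and the labels do not give how either allele was made or whether litters were shared. P-values therefore measure only the spread between these 9 samples. Libraries are named by group and title number, such as KO_1.

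Interferons are secreted proteins that cells release on infection or inflammation. Type I interferon acts through a complex that contains STAT2 and IRF9 and binds a DNA element called ISRE, while interferon-gamma acts mainly at an element called GAS and through the factor IRF1. Both raise antiviral proteins and the machinery that cuts proteins into peptides, carries the peptides into the endoplasmic reticulum and loads them onto class I molecules of the major histocompatibility complex (MHC). Nearly all cells of the liver carry class I molecules, which are made of a heavy chain and beta-2 microglobulin. Class II molecules are carried mainly by dendritic cells, macrophages and B cells.

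Upstream sequence is shown for 6 genes picked by hand, namely the 3 chains of class I (H2-K1, H2-D1 and B2m) and 3 interferon-linked genes (Stat2, Ifit1 and Isg15). Each is 100 bases from RefSeq on build GRCm38.p6, written 5′ to 3′ on the gene's strand, and all lie upstream of the RefSeq start. The H2-D1 window lies inside the gene span given below from GENCODE M21, which begins further upstream. Capitals mark an ISRE match in Stat2, B2m, Ifit1 and Isg15, and a shorter IRF site in H2-K1 and H2-D1. The positions are chr10:128270248-128270347 (forward strand) for Stat2, chr17:34000384-34000483 (reverse strand) for H2-K1, chr17:35262898-35262997 (forward strand) for H2-D1, chr2:122147503-122147602 (forward strand) for B2m, chr19:34640749-34640848 (forward strand) for Ifit1 and chr4:156200836-156200935 (reverse strand) for Isg15.
Stat2: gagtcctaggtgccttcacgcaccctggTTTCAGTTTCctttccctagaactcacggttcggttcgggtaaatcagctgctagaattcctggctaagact
H2-K1: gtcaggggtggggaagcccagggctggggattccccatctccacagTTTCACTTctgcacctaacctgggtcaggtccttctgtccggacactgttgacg
H2-D1: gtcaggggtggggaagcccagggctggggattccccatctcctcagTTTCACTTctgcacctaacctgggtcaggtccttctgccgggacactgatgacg
B2m: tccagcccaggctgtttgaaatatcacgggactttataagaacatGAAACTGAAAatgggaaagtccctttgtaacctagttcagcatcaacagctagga
Ifit1: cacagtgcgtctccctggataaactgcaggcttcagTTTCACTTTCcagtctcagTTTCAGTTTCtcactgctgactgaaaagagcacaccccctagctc
Isg15: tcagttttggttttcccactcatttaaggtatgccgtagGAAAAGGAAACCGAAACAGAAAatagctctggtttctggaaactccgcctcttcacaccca
The H2-K1 and H2-D1 windows had the same base at 96 of 100 places, and the capitals stand at the same place in both. Ifit1 held 2 matches to the ISRE and Isg15 held 3 that overlap one another, so that they appear as 1 run of capitals. Neither Ifit1 nor Isg15 was called in any comparison below. The 2 windows of peptide loading genes are not shown and held no match to any site searched.

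The 250 bases upstream of the start were searched on both strands in the 29 members with a RefSeq window, and the other 9 had none. The ISRE was searched as GAAA, any 2 bases and GAAA. The short IRF site was AANNGAAA, which lies inside every ISRE match, and the GAS was TTCNNNGAA. Each member counted once, by its start furthest upstream. The windows of all genes were taken without that choice, members included, so a gene may count more than once there. An ISRE match occurred in 13 of the 29 member windows (44.8%), against 2.98% of all 32851 windows. The short IRF site occurred in 17 (58.6%, against 21.31%) and the GAS in 7 (24.1%, against 7.02%). ISRE matches were in 6 of the 9 windows of antiviral effectors and in all 5 windows of interferon-gamma GTPases. Peptide loading had 0 in 2 windows and the immunoproteasome 0 in 3. The genes were listed for their known response to interferon, so these shares describe the list, and a match does not show that a factor binds there.

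Recovered reads ran from 59678412 to 66384374 per library. Snd1 itself had 6951, 8446 and 6512 normalized counts in WT, 227, 414 and 359 in KO and 5373, 7941 and 5595 in KI. Transcripts of 14 pancreatic acinar genes summed to 758746 in WT_3, to 329645 in KI_1 and to 4181131 in KI_3. The other 6 libraries had sums between 1046 and 3184, so results are also given without those 3. That leaves KI_2 as the only KI library. Albumin and 5 other hepatocyte transcripts summed to between 3089514 and 5707090.4 per library, and all listed markers of Kupffer cells and of sinusoidal endothelium were above 0 in each. RNA was made from whole liver, so fewer cells of a type and less RNA per cell cannot be told apart.

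The first comparison, KO against WT, asks what the absence of SND1 does to these genes. Heavy chains of class I, 2 peptide loading genes and the interferon factor Stat2 rose in KO. None of the 10 antiviral effectors among the members passed the test, which does not set them apart where 8.83% of all genes were called. Among other type I interferon induced genes, described further on, 7 of 38 rose. In all 5 of the 38 members rose (13.2%), where 4.63% of all genes tested rose, and 0 fell, where 4.20% of all genes fell, so that 8.83% were called in either direction. Another 33 members were not called at a limma adjusted p under 0.05, and 14 of the 38 had an unadjusted p under 0.05, against 25.0% of all genes. The median log2 fold change of the members was 0.10, with a range from -1.65 to 0.98, beside 0.00 for all genes tested. Every KO library was above every WT library in 8 members (21.1%, against 15.0% of all genes), namely the 5 called genes with Ifih1, Dhx58 and Nlrc5. Only B2m was below in every KO library (2.63% of the members, against 14.2% of all genes). The count of 5 was 2 without WT_1, 3 without KO_3, 8 without KO_1 and 8 by DESeq2. Under the same settings 533, 778, 2516 and 2295 of all genes were called, beside 1346 in the main fit. Without WT_3, KI_1 and KI_3, which hold the pancreatic transcripts, 0 members passed, and the 5 genes then had log2 fold changes of 0.50 to 0.92.

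**Figure D1:**
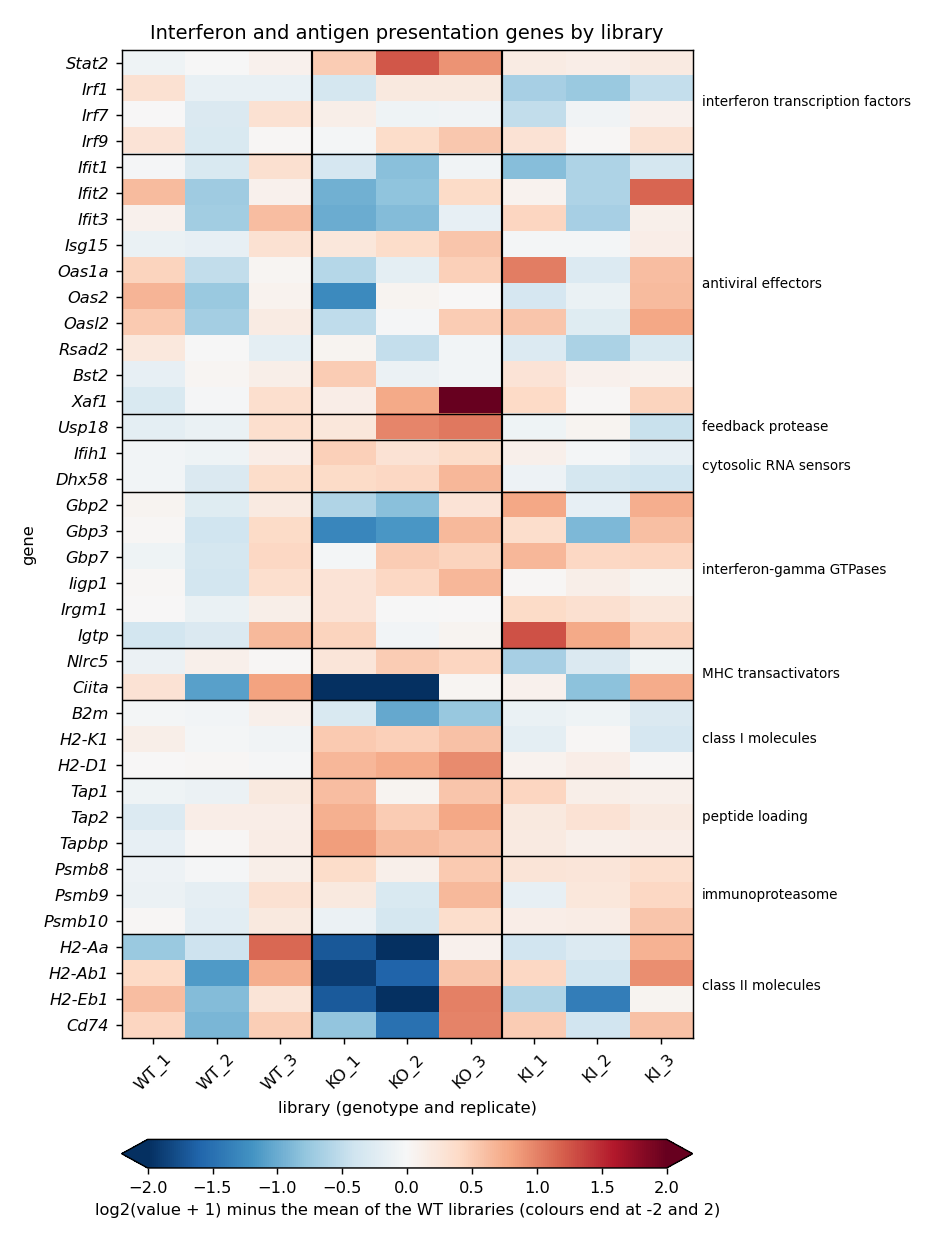
Heat map of the 38 genes (rows, grouped by role) in the 9 libraries (columns), coloured by log2(value + 1) minus the mean of the 3 WT libraries. H2-K1, H2-D1, Tap2, Tapbp and Stat2 are red in all 3 KO libraries. Ciita and the class II genes are blue in KO_1 and KO_2 but above the WT mean in KO_3, from 0.04 for Ciita to 1.01 for H2-Eb1.

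**Figure D2:**
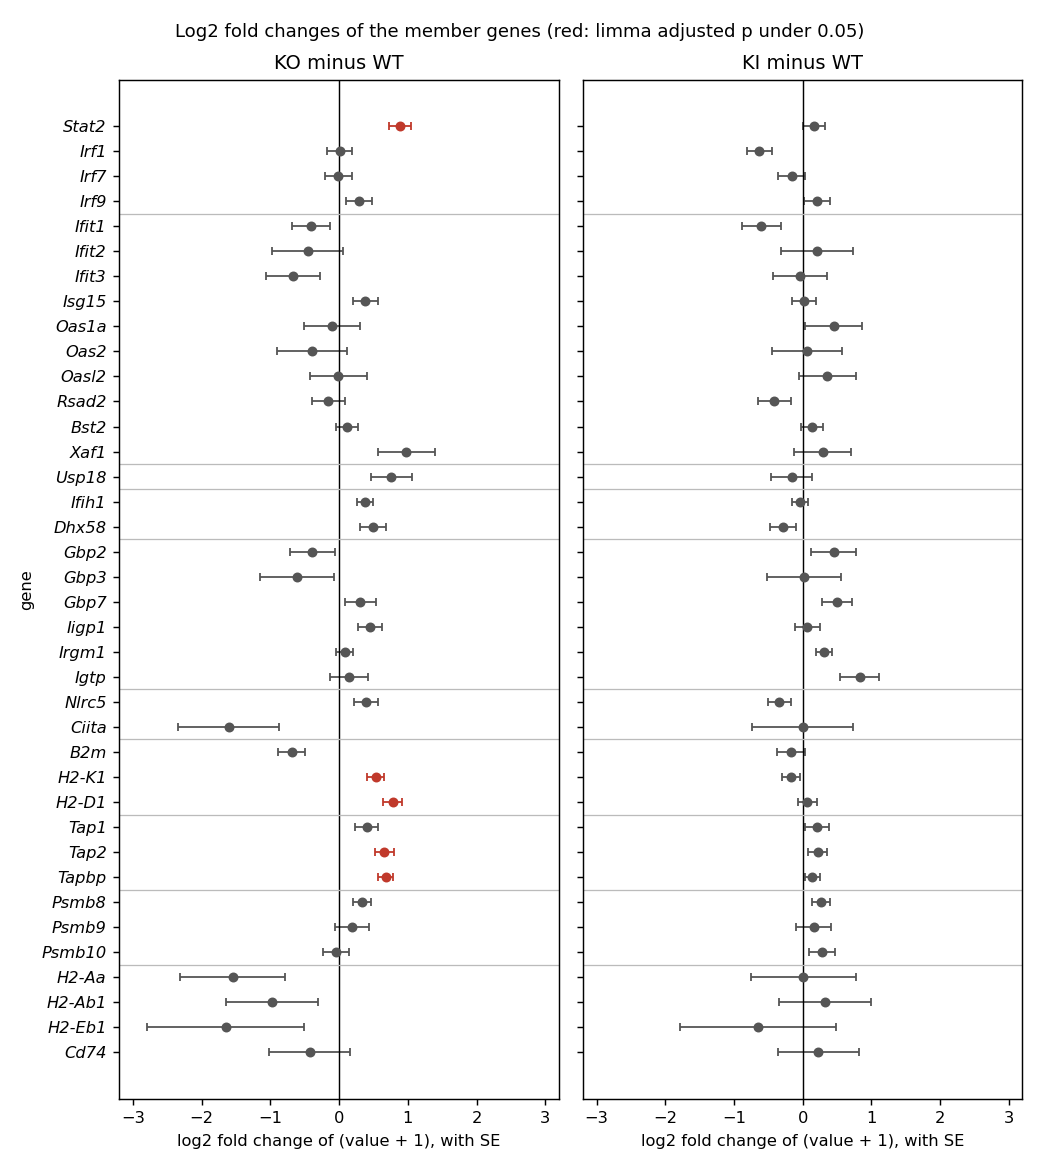
Log2 fold changes (horizontal axis, of value + 1) of the 38 genes for KO minus WT on the left and KI minus WT on the right, with standard errors as bars and grey lines between role groups. Red points mark the 5 genes called in KO against WT, and no gene is red for KI against WT.

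The heavy chains present peptides to cytotoxic T cells. H2-K1 (ENSMUSG00000061232, chromosome 17, 33996017 to 34000347, reverse strand) had 20833, 18812 and 18339 normalized counts in WT, 27949, 27009 and 28771 in KO and 16870.3, 19606 and 15365 in KI. The 3 KO libraries lay close together and above all 6 others. H2-K1 rose by 0.53 ± 0.13 on the log2 scale in KO (SE, limma adjusted p = 0.0331), from 19328 ± 1324 to 27909.9 ± 882 (SD, n = 3 each). H2-D1 (ENSMUSG00000073411, chromosome 17, 35262730 to 35267499, forward strand) had 29905, 30330.0 and 29581 in WT, 47403, 49844 and 57835 in KO and 31449.8, 32793 and 30316 in KI. It was 1.73-fold higher in KO, a log2 fold change of 0.78 ± 0.14 (limma adjusted p = 0.00827), and again the KO libraries did not overlap the rest. H2-K1 passed in 8 of 18 alternatives and lost its call without any one of WT_1, WT_2, WT_3, KO_2, KO_3 or KI_1, with log2 fold changes from 0.44 to 0.59, while H2-D1 passed in 17 of 18. These genes are near copies of each other and of the H2-Q genes, and the mouse reference genome is of C57BL/6J and not FVB, so the share of reads given to each is uncertain.

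Beta-2 microglobulin, the light chain that every class I heavy chain pairs with, did not move with its partners. B2m (ENSMUSG00000060802, chromosome 2, 122147686 to 122153083, forward strand), described after its values were seen, had 62928, 62318 and 69603 normalized counts in WT, 52576, 31974 and 38365 in KO and 58937, 60978 and 52934 in KI. All KO libraries were below all others, yet the difference from WT did not pass (log2 fold change -0.69 ± 0.20, limma adjusted p = 0.0573). It was called lower by DESeq2 and by limma without KO_1, the KO library nearest to WT. Reads of H2-K1 and H2-D1 together, per read of B2m in the same library, were 0.806, 0.789 and 0.688 in WT, 1.43, 2.4 and 2.26 in KO and 0.82, 0.859 and 0.863 in KI. This ratio does not depend on the scaling of a library. It separated KO from the other 6 libraries without overlap, which followed from the values above. Both heavy chains were already higher and B2m already lower in every KO library than in the other 6, so the ratio adds no separate test. Per kilobase of exon B2m was the most abundant member in every group, at a mean level of 75523 in WT and 47642 in KO, followed by H2-D1 (11609 and 20044) and H2-K1 (6579 and 9499.6).

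**Figure D3:**
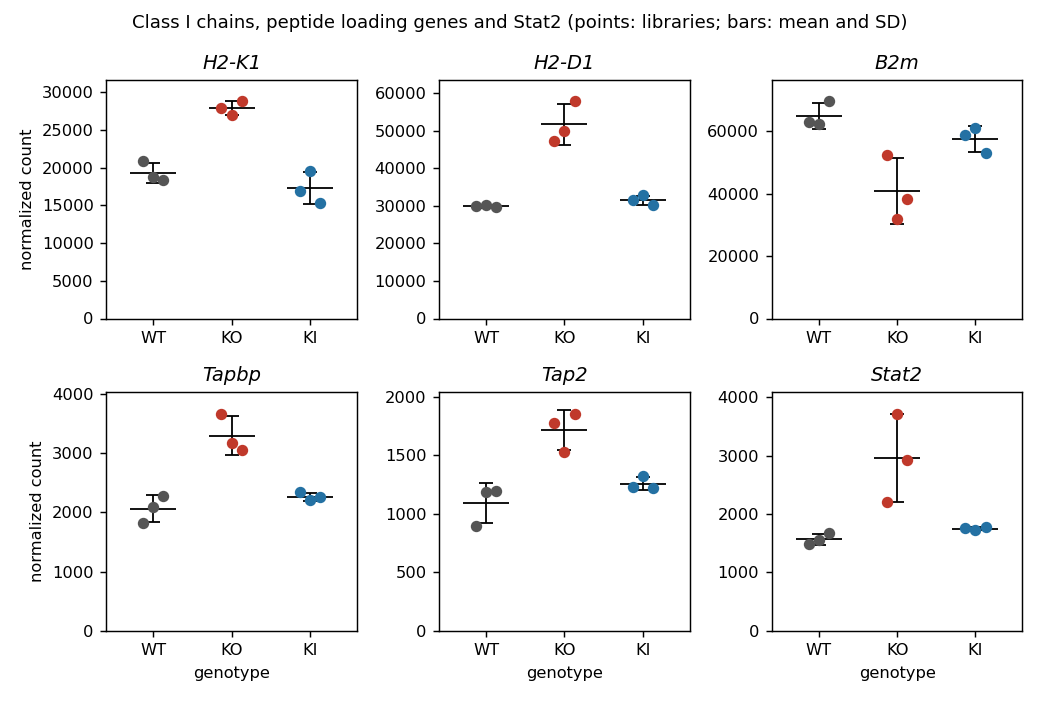
Normalized counts (vertical axis, from 0) of 6 genes by genotype, with 1 point per library and black bars for the mean and SD of 3 libraries. H2-K1, H2-D1, Tapbp, Tap2 and Stat2 sit higher in KO than in WT and KI, and B2m sits lower.

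Peptides reach class I molecules through the transporter TAP, made of TAP1 and TAP2, and through tapasin, which bridges TAP and the empty class I molecule. The tapasin gene Tapbp (ENSMUSG00000024308, chromosome 17, 33915899 to 33929292, forward strand) had 1824, 2093 and 2279 in WT, 3667, 3172 and 3051 in KO and 2338, 2206 and 2254 in KI. Tapbp rose 1.6-fold in KO (log2 fold change 0.68 ± 0.11, limma adjusted p = 0.00721), the smallest adjusted p among the members. Tap2 (ENSMUSG00000024339, chromosome 17, 34203527 to 34216321, forward strand) had 893, 1185 and 1196 in WT, 1775, 1529 and 1857 in KO and 1232, 1321 and 1224 in KI. Tap2 rose 1.58-fold (log2 fold change 0.66 ± 0.14, limma adjusted p = 0.0162), with no KO library inside the WT or KI range, and the call was lost without WT_1 and without KO_3. Tap1 was at 533, 520.2 and 643 in WT and at 857, 587 and 823 in KO, where KO_2 lay inside the WT range, and it did not pass (log2 fold change 0.40 ± 0.17, limma adjusted p = 0.181).

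The immunoproteasome subunits, which replace the catalytic subunits of the standard proteasome and change which peptides are cut, had 0 of 3 called in KO and 1 with an unadjusted p under 0.05. Psmb8 was at 866, 914 and 1011 in WT, at 1193, 998 and 1336 in KO and at 1102, 1098 and 1167 in KI, with a log2 fold change of 0.33 ± 0.13 in KO (limma adjusted p = 0.14). KO_2 fell inside the WT range. Psmb9 and Psmb10 had log2 fold changes of 0.19 and -0.04. The 3 constitutive counterparts Psmb5, Psmb6 and Psmb7 had a median of -0.06 and 0 called, and the 2 genes of the proteasome activator PA28 had a median of -0.01 and 0 called.

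Among the 4 interferon transcription factors only Stat2 passed in KO. Stat2 (ENSMUSG00000040033, chromosome 10, 128270559 to 128292849, forward strand), which with IRF9 is part of the complex that binds the ISRE, had 1483, 1559 and 1667 in WT, 2212, 3716 and 2926 in KO and 1758, 1718 and 1773 in KI. The KO libraries were spread but all above the others, and Stat2 rose 1.88-fold (log2 fold change 0.88 ± 0.16, limma adjusted p = 0.0106), a call lost without WT_1. Its partner Irf9 was at 959, 644 and 811 in WT and at 772, 1025 and 1153 in KO (adjusted p = 0.377), with overlapping groups. Irf7, which amplifies type I interferon production, ranged from 276 to 418 in WT and from 321 to 368 in KO (adjusted p = 0.983). Irf1, which drives many interferon-gamma targets, was at 1462, 1069 and 1064 in WT and 927, 1359 and 1361 in KO (adjusted p = 0.973).

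The antiviral effectors include IFIT proteins, which bind viral RNA, OAS enzymes, which sense double-stranded RNA, viperin (Rsad2) and tetherin (Bst2). Of these 10 genes 0 were called in KO by limma, against 8.83% of all genes, and 1 had an unadjusted p under 0.05, against 25.0%. Their median log2 fold change was -0.13. Ifit1 had 119, 97.3 and 151 in WT, 95.3, 66.8 and 115 in KO and 66.5, 78.5 and 94.2 in KI (KO against WT log2 fold change -0.41 ± 0.28, limma adjusted p = 0.407). Its KO and WT libraries overlapped, and so did those of all 10 effectors. Isg15, a ubiquitin-like modifier, was at 245, 239 and 329 in WT and 311, 344 and 394 in KO (log2 fold change 0.38 ± 0.18, adjusted p = 0.216). Xaf1, an apoptosis factor, was at 74.8, 91.5 and 118 in WT, at 102, 157 and 394 in KO and at 123, 95 and 127 in KI. KO_3 was the highest library and KO_1 lay inside the WT range, and Xaf1 did not pass (log2 fold change 0.98 ± 0.42, limma adjusted p = 0.184). It was called higher by DESeq2 and by limma without KO_1. The other 7 effectors, namely Ifit2, Ifit3, Oas1a, Oas2, Oasl2, Rsad2 and Bst2, had adjusted p from 0.318 to 0.99. Usp18, the protease that removes ISG15 and damps type I signalling, was at 69.1, 72.3 and 101 in WT and 93.3, 158 and 167 in KO (adjusted p = 0.146). It was called in KO only without KO_1, among the alternatives run.

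In 2 of 2 cytosolic RNA sensors among the members every KO library was above every WT library, as in 15.0% of all genes. Neither passed by limma, while DESeq2 called Ifih1 higher. Ifih1, which encodes the sensor of long double-stranded RNA MDA5, was at 977, 947 and 1115 in WT, 1415, 1238 and 1304 in KO and 1079.9, 985 and 898 in KI (KO log2 fold change 0.38 ± 0.12, limma adjusted p = 0.0741). Dhx58, which encodes the regulator LGP2, was at 271, 231 and 363 in WT, 370.2, 379.8 and 449 in KO and 264, 222 and 215 in KI (KO log2 fold change 0.49 ± 0.19, adjusted p = 0.148). Rigi overlapped, with 973, 1158 and 1265 in WT and 1489.8, 1424 and 1132 in KO (adjusted p = 0.357).

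The interferon-gamma GTPases, which attack the vacuoles of intracellular microbes, had 0 of 6 called in KO, 1 with an unadjusted p under 0.05 and a median log2 fold change of 0.11. Iigp1, the most abundant of them, was at 17685, 13561 and 21799 in WT, 20966, 23292 and 27351 in KO and 17763, 18900.0 and 18056 in KI (KO log2 fold change 0.45 ± 0.18, limma adjusted p = 0.146). Only KO_1 lay inside the WT range. Gbp2 and Gbp3 were low in KO_1 and KO_2 (158 and 135 for Gbp2, 64.9 and 71.9 for Gbp3) and not in KO_3 (291 and 255), where WT ran from 203 to 273 and from 123 to 211. Gbp7, Irgm1 and Igtp had adjusted p from 0.423 to 0.804 in KO.

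Class II genes had low values in KO_1 and KO_2 but not in KO_3, and none passed the test. H2-Aa, an alpha chain, had 44.1, 55.9 and 167 in WT, 22.3, 8.1 and 79.6 in KO and 56.9, 61.2 and 122 in KI. H2-Eb1, a beta chain, had 28.8, 9.63 and 22 in WT, 5.07, 0 and 38 in KO and 11.8, 6.39 and 19.1 in KI, so it was listed at 0 in KO_2. For both genes KO_1 and KO_2 were the lowest libraries, and KO_3 lay inside or above the WT range. H2-Ab1, Cd74 and the class II transactivator Ciita, described after their values were seen, are given beside them. H2-Ab1 was at 258, 88.6 and 325 in WT, 51.7, 63.8 and 286 in KO and 259.8, 152 and 374 in KI. Ciita was at 94, 35.6 and 134 in WT, 16.2, 11.1 and 78.7 in KO and 81.6, 42.9 and 129 in KI. Cd74, the invariant chain that guards the class II groove, was at 5919.9, 2325 and 6177 in WT, 2549.6, 1559.9 and 8746 in KO and 6258, 3369.8 and 6552 in KI. The lowest values of H2-Ab1 and Ciita were again in KO_1 and KO_2, whereas for Cd74 WT_2 was below KO_1. None of the 4 class II molecules passed in KO (median log2 fold change -1.27, limma adjusted p from 0.238 to 0.708), and 0 had an unadjusted p under 0.05. Ciita did not pass either (log2 fold change -1.61 ± 0.74, adjusted p = 0.209).

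Markers of immune cells also differed between libraries. The 8 tested T and NK cell markers had median log2 deviations from the WT mean of -2.35, -1.27 and 0.47 in KO, and of -0.23 to 0.63 in the other 6 libraries. None of the 8 was called and 1 had an unadjusted p under 0.05. The summed level of all 12 listed ran from 312 to 322 in WT, 219 to 442 in KO and 309 to 409 in KI. In KO_1 Cd3d and Ncr1 were at 0, whereas Cd4 was at 275, its highest library, and made up most of the sum of 308. For 8 tested markers of dendritic cells the deviation was -0.43, 0.63 and 1.01 in KO, and between -0.28 and 0.10 in the other libraries, with summed levels of 433 to 505 in WT, 230.2 to 514 in KO and 336 to 429 in KI. Of these 8 markers 6 had positive and 2 negative log2 fold changes in KO, with a median of 0.50, and 1 was called. It was Zbtb46, a transcription factor of dendritic cells, which fell in KO (356 ± 20 to 193 ± 75.7, limma adjusted p = 0.0402), and Ccr7 was at 0 in KO_2 and KI_1 and Itgax in KI_1. For 5 tested B cell markers the deviation was -0.83, -0.54 and -0.45 in KO, within the range of -0.95 to 0.79 of the other libraries. Their list summed to between 121 and 325 in WT, 85.2 and 185 in KO and 108 and 247 in KI, and Ms4a1 was at 0 in KO_1. Of 12 markers of Kupffer cells and macrophages 3 rose in KO (25%, against 4.63% of all genes), namely Mpeg1, Marco and Cd163, and 0 fell. Timd4, Clec4f, Adgre1 and Cd5l had negative log2 fold changes (-0.53, -0.14, -0.10 and -0.01), and the list median was 0.19. The list deviated by -0.03, -0.27 and 0.99 in KO. It summed to between 16900.1 and 30797 in WT, 25033 and 50166 in KO and 20206 and 33290.4 in KI. Of 8 tested markers of neutrophils and monocytes 1 rose (Mmp8), and this list deviated by 0.12, 2.29 and 3.40 in KO. It summed to between 125 and 345 in WT, 245 and 1918 in KO and 169.6 and 517 in KI. The part of these cells in the values of the members was not tested.

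**Figure D4:**
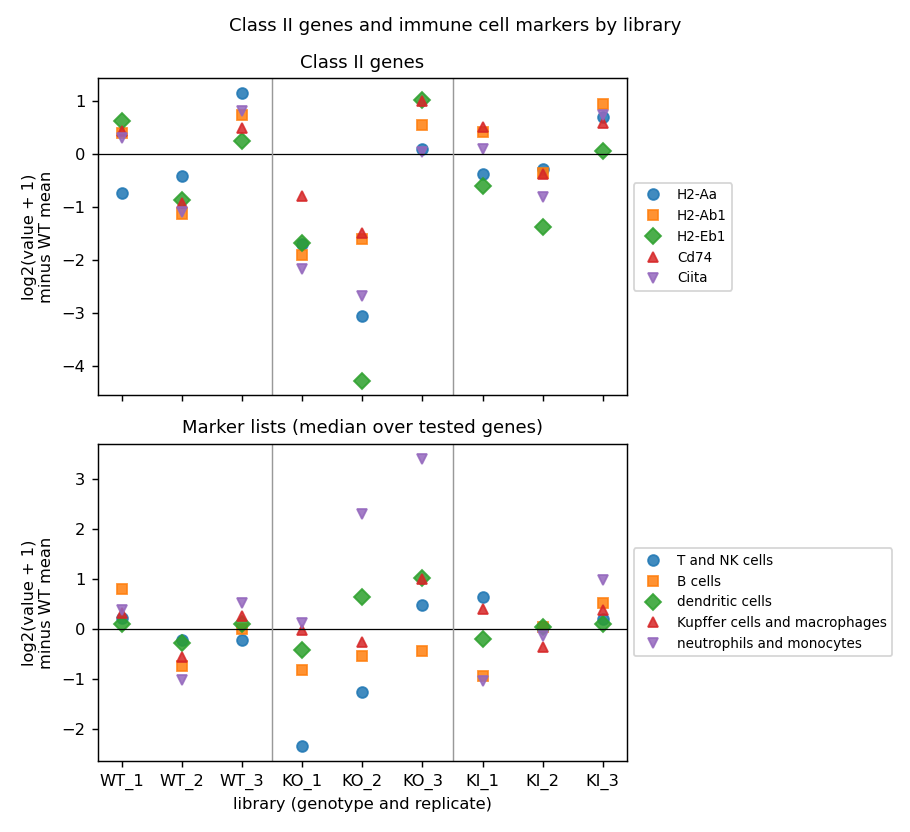
Log2(value + 1) minus the WT mean (vertical axis) in each library for 5 class II genes (top), and the median of the same over the tested genes of 5 marker lists (bottom). Ciita, H2-Aa, H2-Ab1 and H2-Eb1 are lowest in KO_1 and KO_2, where T and NK cell markers are also lowest, while neutrophil and monocyte markers are highest in KO_2 and KO_3.

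KI against WT asks what follows when SND1 is present with a mutated Tudor domain. Of the 38 members 0 were called by limma, 0 by edgeR and 0 by DESeq2, and 4 had an unadjusted limma p under 0.05 (Irf1, Gbp7, Irgm1 and Igtp). Of all genes tested 0.00656% were called higher and 0.0197% lower, 0.0263% in all, and 11.6% had an unadjusted p under 0.05. Irf1 was at 747, 705 and 851 in KI, below every WT library, and had the smallest p of the members (log2 fold change -0.63 ± 0.18, limma adjusted p = 0.223). Igtp, an immunity-related GTPase, was at 1444, 1524 and 2927 in WT, 2517, 1787 and 1936 in KO and 4502, 3142 and 2570.4 in KI. WT_3 lay inside the KI range, and Igtp did not pass (log2 fold change 0.83 ± 0.28, adjusted p = 0.282). Groups did not overlap in 4 members that were higher in KI (Stat2, Irgm1, Tap2 and Psmb8, 10.5% against 9.47% of all genes) and in 4 that were lower (Irf1, Ifit1, Rsad2 and B2m, 10.5% against 10.2%). For H2-D1 the log2 fold change was 0.07 ± 0.14 and for H2-K1 it was -0.17 ± 0.13, with adjusted p of 0.88 and 0.671.

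The genotypes that differ in SND1 level and in the Tudor domain were compared directly as KI against KO, which uses the same KO libraries as the comparison above. In it 6 members were lower in KI than in KO (15.8%, against 4.85% of all genes), and 0 were higher, against 3.60%, with 8.45% of all genes called in either direction. The 6 were H2-K1, H2-D1, Tapbp and Stat2, which also rose in KO against WT, with Dhx58 and Nlrc5. Their log2 fold changes were -0.70 ± 0.13, -0.71 ± 0.14, -0.54 ± 0.11, -0.72 ± 0.16, -0.77 ± 0.19 and -0.73 ± 0.17, with limma adjusted p of 0.0117, 0.0131, 0.0206, 0.0255, 0.0377 and 0.0268. Nlrc5, the transactivator of class I genes, was at 417, 488 and 459.6 in WT, 535, 647 and 611 in KO and 288, 371 and 429 in KI. Its KO libraries were above all others, and KI_1 and KI_2 were below every WT library, while KO against WT did not pass (log2 fold change 0.39 ± 0.17, adjusted p = 0.18). At an unadjusted p under 0.05 there were 13 members, against 24.9% of all genes. KI libraries did not overlap KO in 12 members that were lower (31.6%, against 14.1%) and in 2 that were higher (5.26%, against 12.3%), namely B2m and Igtp. The count of 6 fell to 0 without KI_1, 1 without KI_3, 2 without KO_2, 3 without KO_3 and 3 without KI_2. Under the same settings 481, 535, 400, 816 and 1113 of all genes were called, beside 1287 in the main fit. The count of members was also 0 with the pancreatic level as a covariate, where 137 of all genes were called. Without the 3 libraries that hold pancreatic transcripts KI_2 was the only KI library, and the 6 genes had log2 fold changes from -0.84 to -0.51.

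Position was then examined, since 10 of the 38 members lie in the MHC on chromosome 17 between Tapbp and H2-D1 (33915899 to 35267499). Of these 10 genes 4 rose in KO (40.0%, against 4.63% of all genes tested), namely Tapbp, H2-K1, Tap2 and H2-D1. They are 4 of the 5 members called above. Another 66 tested genes lie in the same interval, of which 6 rose (9.09%) and 1 fell (1.52%). The 6 were the complement genes C4b and Cfb, the heat shock genes Hspa1a and Hspa1b, the sialidase gene Neu1 and the trafficking gene Vps52, and the gene that fell was Rps18, all named after their values were seen. Tap1, Psmb8 and Psmb9 lie between H2-K1 and Tap2 and were not called. The median log2 fold change in KO was 0.37 for the 10 members and 0.09 for the other 66 genes.

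Other genes of the pathway were taken from 13 lists that hold no member. Like the members, they were chosen with earlier results of these data known, so their shares describe the lists and add no separate test. Of 110 such genes tested, 14 rose in KO (12.7%, against the 4.63% above) and 2 fell (1.82%, against 4.20%), and 0 were called in KI against WT. Among 38 other genes induced by type I interferon 7 rose and 0 fell, with a list median of 0.20. The 3 with the smallest adjusted p were the antiviral membrane gene Ifitm2 (1283 ± 46.7 in WT to 3975 ± 686 in KO, log2 fold change 1.62), Ly6e (8045 ± 716 to 19711 ± 1676, 1.29) and Lgals3bp (1657 ± 173 to 3075 ± 315, 0.89), with limma adjusted p of 0.000302, 0.000317 and 0.0026. Each of these 3 was above every WT library in all 3 KO libraries. Among 5 tested feedback regulators 3 rose, namely Ptpn6, Ptpn2 and the cytokine inhibitor Socs3, which was at 172, 113 and 278 in WT and 401, 2274 and 2192 in KO.

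The other lists were mostly not called in KO. Of 8 tested interferon receptor and kinase genes 0 passed (1 had an unadjusted p under 0.05), and of 13 other interferon-gamma GTPases 0 passed (3 had an unadjusted p under 0.05). Of 9 other class I genes H2-Q7 rose (214 ± 38.9 to 488 ± 124, limma adjusted p = 0.00935) and H2-T24 fell (96.3 ± 25 to 39.5 ± 10.9, adjusted p = 0.0426). Cxcl9, a chemokine induced by interferon-gamma, had means of 227 ± 55.2 in WT and 73.3 ± 9.79 in KO and was called lower (log2 fold change -1.59, limma adjusted p = 0.00746), with 82.2, 62.8 and 75.1 in KO below every other library. The chaperone gene Calr, the kinase gene Tbk1 and the protease gene Lgmn were the called genes of their lists, and all 3 rose. None of 7 listed interferon genes had a row in the table, so their transcripts were not analysed here.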

How the data were processed

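Total RNA from 9 mouse livers was made into stranded mRNA libraries, per the labels' protocols. Per the submitters' processing notes, TopHat2, Bowtie2 and featureCounts were used with GRCm38. Versions, annotation and scaling tool are not given in the sources used here. The authors deposited a signal per gene and library, called normalized counts in the table's name. Multiplied by 1 factor per library (0.8921 to 1.1051) the values came out as whole reads, and with a tolerance of 0.0051 units 5 values in all did not come out whole (at least 99.995% did in each library). These recovered counts, which the authors had divided before they were deposited, served edgeR 4.0.16, DESeq2 1.42.0 and the TMM scaling alternative. They also served the simulated data and the reads per library given above.

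The main test was limma 3.58.1 in R 4.3.3 on log2(value + 1), pseudocount 1, for 15238 genes with a mean of at least 10. It used a variance trend, 1 mean per group over all 9 libraries (6 residual degrees of freedom), two-sided tests and Benjamini-Hochberg adjustment over all genes, with genes called at an adjusted p under 0.05. Fold changes are on this log2 scale and understate low genes, and folds are ratios of mean values. Errors beside means are SDs. The procedure was tested on simulated data. Column names were joined to samples by animal number. Levels per kilobase use exon lengths from GENCODE M21.

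Named with every library's value were, per role, the called members and those with the smallest p in KO and in KI against WT, and any other gene shown so was picked with its values in view. The members and all lists were chosen with earlier results of these data known. Of listed symbols, 4 were matched through other names (Ddx58, Mb21d1, Tf and Tmem173). Other computing used Python 3.11, numpy 2.4.6, pandas 2.3.3 and matplotlib 3.10.9.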

Additional observations from a re-analysis of the deposited data

How the results depend on the processing

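Each count of members called was recomputed under 18 alternatives. For KO against WT it was 8 by DESeq2 and 0 without the 3 libraries with pancreatic transcripts, and with 1 library left out it ran from 2 to 8. For KI against KO it was 11 by DESeq2, 0 with the pancreas covariate and 2 with only the groups compared in the fit. With 1 library left out it ran from 0 to 9. Its count without the 3 libraries rests on KI_2 alone in KI and is not given. The cause of these differences was not tested. For KI against WT it was 0 in all 18. Over all genes limma, edgeR and DESeq2 called 1346, 1210 and 2295 in KO against WT, 4, 1 and 372 in KI against WT, and 1287, 1200 and 2287 in KI against KO. Without the 3 libraries limma called 30 in KO against WT, and KI_2 alone remained for KI. With the title number as a replicate block the counts were 6 in KO against WT, 0 in KI against WT and 7 in KI against KO, Ciita being the added gene. The numbers in the titles do not all match those in the column names, so they were not used as pairs in the main test. Same-numbered libraries correlated from -0.14 to 0.57 in their deviations from the group means. In both other groups 3 of 9 libraries correlated best with their own number. These values do not decide whether the numbers mark pairs. A pseudocount of 10, no filter and TMM scaling changed no count of members, and TMM changed the sign of 0 members. No called gene changed direction under any alternative. Depth limits the low members most, such as H2-Eb1, whose values ran from 0 to 38.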
